A study of Mus musculus with 18 samples.

Results

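Gene expression was compared between lineage-marked cells of the mouse oral mucosa and of the ventral dermis. The comparison used 6 of the 18 arrays of the series, 3 titled Oral and 3 titled Ventral, and covered all 18193 genes with a usable probe set. Oral samples were GFP-positive, RFP-negative cells of Wnt1Cre; R26mTmG mice, taken from what the tissue label calls oral mucosa and the protocol calls oral dermis. Ventral samples were GFP-positive, RFP-negative cells from the ventral dermis of En1Cre; R26mTmG mice. The 4 sites of the series (Oral, Ventral, Cranial and Dorsal) all came from untreated mice at postnatal day 30. All were sorted as negative for CD31, CD45, Tie2, EpCAM, DAPI and a marker the labels write as Tie119. Cranial cells came from cranial dermis of the Wnt1Cre line and Dorsal cells from dorsal dermis of the En1Cre line. In R26mTmG mice every cell is red until Cre acts, and a cell in which Cre was ever active stays green together with its descendants. Wnt1Cre therefore marks cells of neural crest origin, and En1Cre marks cells descended from those that once expressed the homeobox gene Engrailed-1. Body site and reporter line coincide in this comparison, so that their effects cannot be told apart. The labels do not say that the 3 arrays of a group came from separate mice, and p-values therefore measure the spread between these samples, which may be technical.

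Fibroblasts keep a memory of where in the body they arose. Cells of the trunk and limbs carry combinations of Hox genes, transcription factors that mark position along the body axis, whereas the neural crest of the face forms largely without Hox expression and uses other homeobox factors, among them the Dlx, Msx, Lhx, Alx and Pitx families. Oral mucosa is also known as a tissue that heals with little scar, and its connective tissue, unlike that of skin, holds no hair follicles and no dermal fat layer.

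Values are log2 expression, on which a difference of 1 is a 2-fold difference. Over all genes, the 3 Oral arrays correlated with each other at 0.994 to 0.995 (Pearson's r across genes, which are not independent replicates). Ventral 2 and Ventral 3 correlated at 0.996, and Ventral 1 correlated with them at 0.983 and 0.982. Oral and Ventral arrays correlated at 0.965 to 0.972, and no 2 arrays held identical values. Ventral 1 stood apart from the other 2 Ventral arrays on the third principal component of the 12 site arrays, and Dorsal 1 stood apart on the second. The Dorsal arrays had the largest spread, where the SD of the middle gene was 0.282, compared with 0.104 to 0.141 in the other 3 sites. They enter the common estimate of spread used here. A group mean at or below 4.08, the highest lower quartile of the 6 arrays, is called near background.

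Differences between Oral and Ventral cells reached a large part of the genes measured. Of 18193 genes, 2665 were called at an adjusted p under 0.05 (limma), which is 14.6%. Of these, 1881 were higher in Oral (10.3%) and 784 were lower (4.31%). The difference was at least 2-fold for 1056 called genes (5.8%), 799 higher (4.39%) and 257 lower (1.41%). The median difference over all genes was -0.02. The share of calls that were higher in Oral was 70.6%, but it was 51.8% when the deposited values were quantile normalized again (1608 higher, 1497 lower), so the excess of higher calls depends on scaling. The count moved with single arrays, from 1420 genes without Oral 2, 1758 without Oral 1 and 1719 without Ventral 2 to 5085 without Dorsal 1. Arrays of the 2 groups did not overlap in 8086 genes (44.4%), 4509 of them higher (24.8%) and 3577 lower (19.7%) in Oral. Counts of members in the gene lists below are to be read beside these shares and those of the calls.

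The 12 largest rises, among called genes whose arrays did not overlap, named several regulators of position and growth. Egr3, an immediate early transcription factor, read 9.33, 10.02 and 9.73 in the Oral arrays and 4.27, 3.84 and 3.71 in the Ventral arrays, a difference of 5.75 ± 1.01 (SE) at an adjusted p of 0.00366. Nr2f1, an orphan nuclear receptor of head development, read 8.56, 8.73 and 8.55 against 3.57, 3.31 and 3.36, a difference of 5.21 ± 0.28. Both genes lay near background in every Ventral array except Egr3 in Ventral 1. Lhx8, whose LIM homeobox protein acts in jaw and palate development, read 10.89, 10.98 and 10.83 in Oral and 5.30, 5.90 and 6.24 in Ventral, 33.9 times higher in Oral at an adjusted p of 1.73e-07. The homeobox gene Meox2 rose by 4.60 ± 0.30, and the POU factor gene Pou3f3 rose by 4.39 ± 0.19. The list continued with Angptl1 (5.42), the secreted protein of the angiopoietin-like family, the retrotransposon-derived gene Rtl3 (5.02), the prostaglandin synthase Ptgs2 (4.69) and the matrix protein Sbspon (4.53). It closed with the R-spondin Rspo2 (4.41), N-cadherin, Cdh2 (4.35), and the growth factor Igf2 (4.13). Ventral 1 read apart from its group in several of them. Igf2 read 12.38, 12.47 and 12.06 in Oral and 6.04, 9.31 and 9.19 in Ventral, and Cdh2 read 10.40, 10.72 and 10.23 against 8.20, 4.76 and 5.33. Without Ventral 1 both were still called, at differences of 3.06 and 5.41.

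The 12 largest falls were led by Hoxc8, a Hox factor of the mid-trunk, at 3.68, 3.31 and 3.56 in Oral and 10.64, 10.63 and 10.87 in Ventral. Its mean was near background in Oral and 147 times higher in Ventral, a difference of -7.20 ± 0.26 at an adjusted p of 1.49e-07. Other entries came from Hox loci: Hoxa9 (-5.36), Hoxc10 (-4.97) and the antisense transcript Hoxb5os (-3.63). Ifi202b, a DNA-binding member of the interferon-inducible p200 family, read 2.93, 3.10 and 3.23 in Oral against 8.91, 8.40 and 8.52 in Ventral. Its relative Ifi204 fell by 3.97 ± 0.41. The acute-phase protein gene Saa3 (-5.03) and the neutrophil chemokine gene Cxcl2 (-4.19) followed, with the cytochrome P450 gene Cyp4b1 (-3.79) and Lgr5, a receptor for R-spondins (-3.56). The last were Pcsk5, a proprotein convertase (-3.39), and the ribosomal protein paralog Rpl39l (-3.28). Each gene named among the largest rises and falls was called in all 21 alternative gene-level settings.

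Hox genes were lower in Oral or not called. Of 33 measured members, 16 were called lower and 0 higher, and the median difference was -0.66 against -0.02 over all genes. In 23 members every Oral array lay below every Ventral array, and in 0 above. Over all genes, 4.31% were called lower and 10.3% higher, and arrays did not overlap in 19.7% (lower) and 24.8% (higher). The count lay between 13 (without Oral 2) and 19 (without Dorsal 1) when 1 array was left out. The HoxC cluster held the largest part: 6 of its 7 measured members fell, with a median of -3.12. In the HoxB cluster 5 of 9 fell (median -1.02), in HoxD 3 of 8 (median -0.19) and in HoxA 2 of 9 (median -0.66). Of the 8 HoxD members, 4 were near background in both groups.

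Within the HoxC cluster the values differed by member. Hoxc10, a factor of the lower trunk and hind limb, read 4.61, 4.02 and 4.22 in Oral and 9.69, 8.91 and 9.14 in Ventral. Hoxc5 read 3.47, 4.37 and 4.76 against 7.69, 7.11 and 7.21, and Hoxc4 read 4.79, 4.59 and 4.67 against 7.95, 7.41 and 8.05. In Hoxc10, Hoxc5 and Hoxc4 all Oral arrays lay below all Ventral arrays by more than 2 log2 units. Hoxc9 read 6.54, 6.39 and 6.43 in Oral, above background, against 8.93, 8.80 and 8.96, a difference of -2.44 ± 0.14. From the other clusters, Hoxa9 read 4.50, 4.64 and 4.19 against 9.79, 9.68 and 9.93. Hoxd8 read 5.07, 5.23 and 5.71 against 6.93, 8.38 and 8.32, and Hoxd9 fell by 1.67 ± 0.31. Hoxb4 read 6.29, 5.89 and 6.29 against 7.95, 7.98 and 8.01. Not every member differed: Hoxa5 read 7.65, 7.65 and 8.47 in Oral and 8.61, 8.83 and 8.44 in Ventral (adjusted p = 0.19), with overlapping arrays. Hoxc4, Hoxd9, Hoxb4 and Hoxa5 were chosen after their values were seen.

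**Figure D1:**
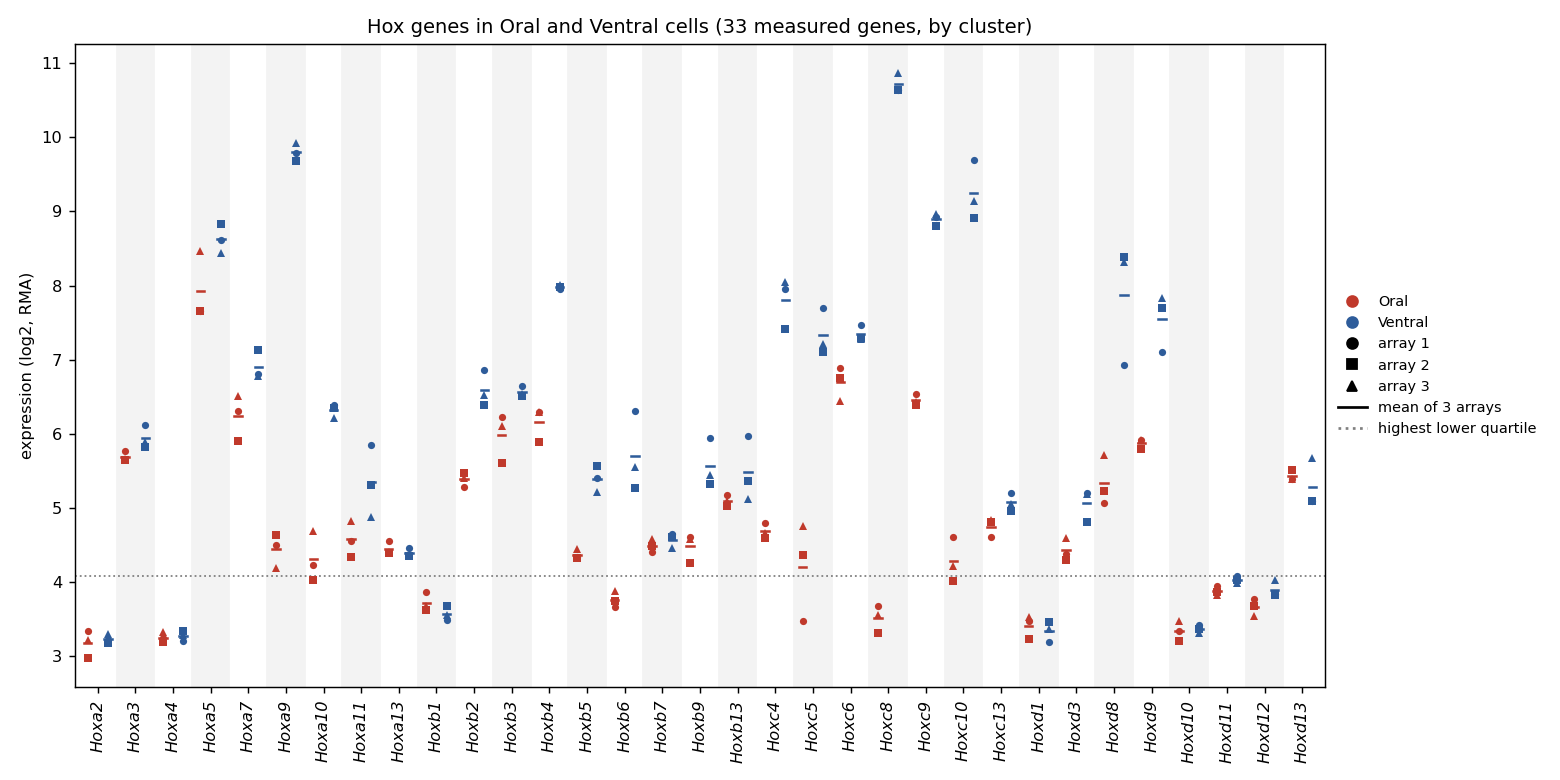
Log2 expression of Hox genes in each Oral and Ventral array; points are single arrays, short lines are means of 3, and the dotted line is the highest lower quartile of the 6 arrays (4.08). Hoxc8, Hoxa9 and Hoxc10 show Oral arrays near that line and Ventral arrays between 8.91 and 10.87.

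Transcription factors of craniofacial development moved the other way. Of 38 measured members, 22 rose and 1 fell, and the median difference was 1.25. The counts were 18 (without Oral 2) to 24 (without Dorsal 3) with 1 array left out. Eya1, a transcriptional coactivator that binds Six2 and its relatives, read 7.91, 8.68 and 8.33 in Oral and 4.75, 4.08 and 3.87 in Ventral, a difference of 4.07 ± 0.25. Six2 itself read 8.83, 8.59 and 8.52 against 5.44, 5.42 and 5.59. Both genes separated the groups by more than 2 log2 units in every pair of arrays. Pax3, a factor of the early neural crest and of muscle precursors, read 9.03, 8.96 and 8.87 against 5.43, 5.19 and 5.59, 11.7 times higher in Oral at an adjusted p of 7.93e-08. Its other 2 probe sets were called the same way.

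The Dlx genes, which pattern the jaws, included Dlx2 at 8.12, 8.54 and 8.44 in Oral against 5.20, 4.82 and 4.94 in Ventral, a difference of 3.38 ± 0.15. Dlx1, its neighbour in the genome, read 6.86, 7.06 and 7.11 against 4.61, 4.47 and 4.50. Several members that follow here were chosen after their values were seen. Alx1, a factor of the frontonasal mesenchyme, read 6.53, 6.81 and 6.91 in Oral and was near background in Ventral at 3.65, 3.64 and 3.72. Shox2, needed for the palate, rose by 3.08 ± 0.18, Foxc1 by 2.67 ± 0.33, Tfap2a, a neural crest factor, by 2.40 ± 0.12, and Barx1, a factor of molar tooth mesenchyme, by 1.89 ± 0.12. Among the genes chosen by rule, Msx1, a homeobox gene of tooth and palate mesenchyme, read 8.08, 8.09 and 8.03 against 6.33, 5.99 and 5.95. Pitx1, known for the mandible and the hind limb, read 7.86, 7.44 and 7.38 against 5.46, 5.53 and 5.48. Lhx6, the partner of Lhx8 in the jaw, read 6.17, 5.99 and 6.20 against 4.40, 4.60 and 4.31. In each of these the lowest Oral array lay above the highest Ventral array.

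The one craniofacial member called lower was Hand2, a factor of the lower jaw, the heart and the limb. It read 6.01, 5.84 and 6.03 in Oral and 7.72, 6.77 and 6.62 in Ventral, a difference of -1.07 ± 0.27 (adjusted p = 0.0238). This call held in 17 of the 21 alternatives, with an adjusted p of up to 0.09.

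**Figure D2:**
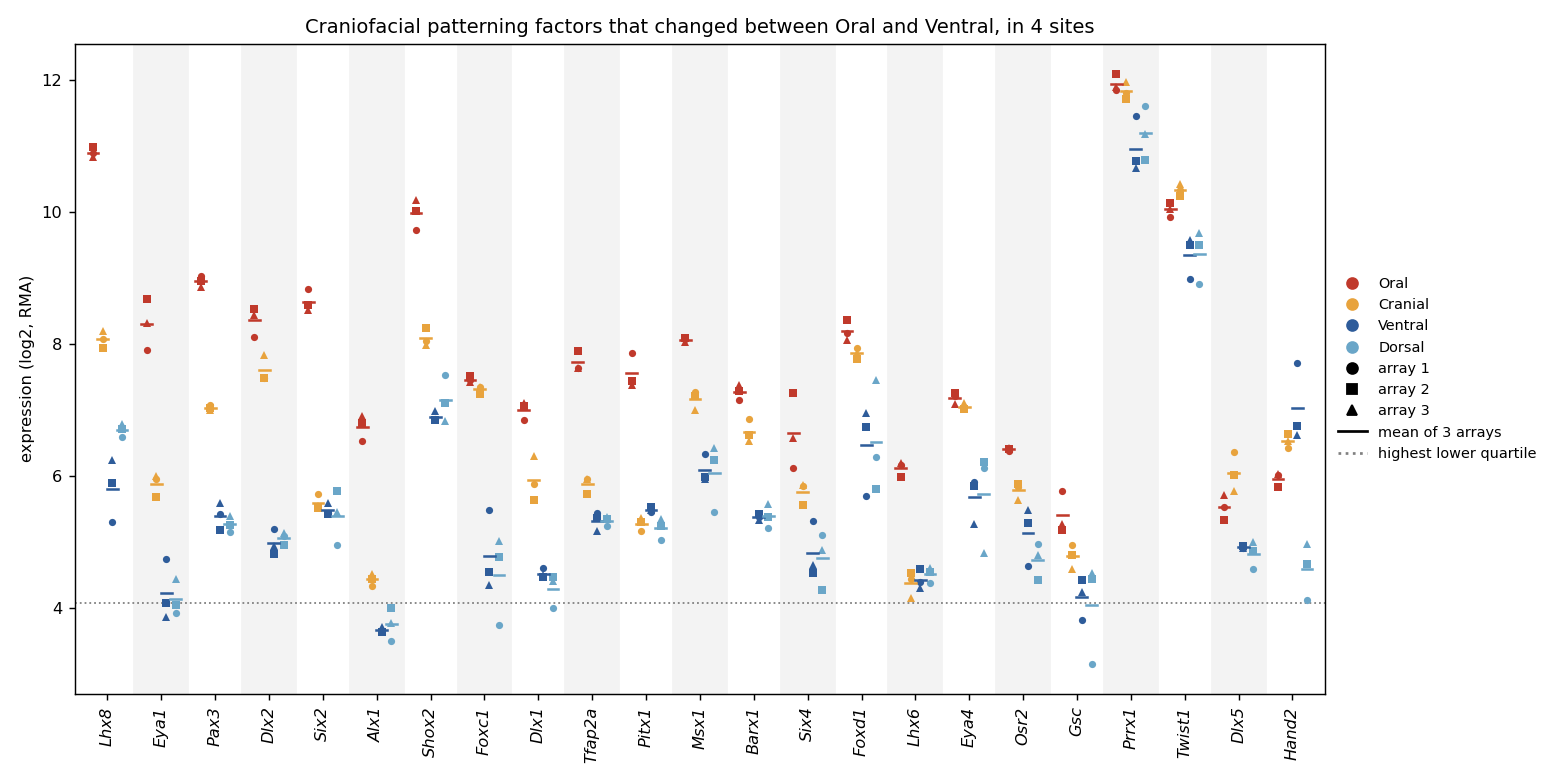
Log2 expression of the craniofacial patterning factors called between Oral and Ventral, in each Oral, Cranial, Ventral and Dorsal array. Points are single arrays, short lines are means of 3, and the dotted line is the highest lower quartile of the 6 Oral and Ventral arrays. Lhx8, Eya1 and Pax3 lie at least 2 log2 units higher in every Oral array than in any Ventral array. Hand2 lies lower in Oral than in Ventral.

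The list of trunk and limb factors showed no common direction: of 30 measured members, 6 rose and 6 fell, with a median of -0.19. It includes Nr2f1, described above as a receptor of head development, so these counts depend on which genes were listed. Nr2f1 and Meox2, described above, were on this list, as was the T-box gene Tbx2, at 6.43, 5.98 and 5.68 in Oral and near background in Ventral at 3.71, 3.39 and 3.63. Tbx15, a T-box factor of skin and skeleton, rose by 1.39 ± 0.26, called in 20 of 21 alternatives. Irx2, an Iroquois homeobox factor, read 6.02, 6.26 and 6.10 against 7.84, 7.80 and 7.78, a difference of -1.68 ± 0.11. Meis1, a cofactor of Hox proteins, fell by 1.12 ± 0.21, and the forelimb gene Tbx5, chosen after its values were seen, fell by 0.96 ± 0.18. Zic1, a zinc finger factor of dorsal tissues, was near background in Oral (3.16, 3.23 and 3.29) and read 4.03, 4.51 and 4.88 in Ventral. Its difference of -1.25 ± 0.31 was called in 15 of 21 alternatives, with an adjusted p of up to 0.09.

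The lineage driver genes themselves did not mark the adult cells. En1 was near background in both groups (3.25, 3.66 and 3.33 in Oral; 3.88, 3.77 and 3.68 in Ventral; adjusted p = 0.116). Wnt1 read 5.40, 5.24 and 5.42 against 5.32, 5.52 and 5.53 (adjusted p = 0.645). Neither gene checks the labels, since Cre marks a cell by past and not by present expression of its driver.

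In the Wnt pathway, members of the R-spondin branch moved in opposite directions. R-spondins are secreted proteins that bind the receptors Lgr4, Lgr5 and Lgr6 and strengthen Wnt signals by keeping Wnt receptors at the cell surface. Of 44 measured Wnt pathway genes, 7 rose and 8 fell, with a median of -0.11. Without Oral 2 the number called was 8, and without Dorsal 1 it was 20. The ligand gene Rspo2 read 9.63, 9.81 and 9.80 in Oral and 5.87, 5.07 and 5.05 in Ventral, 21.3 times higher in Oral (adjusted p = 0.000139). Lgr4 read 10.69, 11.00 and 10.86 against 8.78, 9.01 and 9.10, a difference of 1.89 ± 0.19. Its other probe set, at 3.56 to 4.44 in the 6 arrays, was called the other way (-0.55 ± 0.12). Lgr5 went down, at 5.67, 5.53 and 5.15 in Oral and 7.17, 10.01 and 9.88 in Ventral. Ventral 1 lay nearest to Oral, and without it the difference was -4.49 in place of -3.56. Lgr6 fell by 1.78 ± 0.41, called in 20 of 21 alternatives.

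Other Wnt components followed no single direction either. Dkk2, a secreted modulator of the Lrp coreceptors, read 5.74, 5.74 and 5.58 in Oral against 8.18, 8.44 and 8.16 in Ventral, a difference of -2.57 ± 0.51. The coreceptor gene Lrp6 rose by 1.14 ± 0.21 and Znrf3, a ligase that removes Wnt receptors, by 1.06 ± 0.21, both chosen after their values were seen. The receptor gene Fzd7 rose by 1.57 ± 0.34, called in 20 of 21 alternatives. Apcdd1, a membrane inhibitor of Wnt signals, read 8.91, 8.79 and 8.43 against 10.31, 10.37 and 10.45, called lower in 19 of 21 alternatives, and 0 of its 5 other probe sets were called. The ligand gene Wnt5a read 10.78, 11.00 and 10.87 in Oral and 10.08, 8.06 and 7.97 in Ventral, called in 16 of 21 alternatives, with an adjusted p of up to 0.087. Here too Ventral 1 lay nearest to Oral, and the difference was 2.18 ± 0.54 with it and 2.87 without it. Wif1, a secreted Wnt inhibitor chosen after its values were seen, turned on the same array. It was near background in Oral (2.91, 2.88 and 3.18) and read 3.24, 8.06 and 8.10 in Ventral. The difference was not called with all arrays (adjusted p = 0.0763) and was -5.09 without Ventral 1 (adjusted p = 0.00255). Another secreted modulator, Sfrp2, read 9.61, 9.79 and 9.56 against 7.40, 11.03 and 10.95, and was not called either way (adjusted p = 0.0879 without Ventral 1).

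In the TGF-beta and BMP pathway 7 of 37 measured members rose and 5 fell (median 0.17). Those that rose included targets and parts of BMP signalling, while those that fell included activin subunits and secreted antagonists. Id1, a target gene of BMP receptors, read 9.99, 10.24 and 10.17 in Oral and 8.15, 6.34 and 6.83 in Ventral, a difference of 3.03 ± 0.65. Id4 rose by 1.44 ± 0.23 in 20 of 21 alternatives and the inhibitory Smad7 by 1.23 ± 0.26 in 21 of 21. The ligand gene Bmp6 read 5.98, 5.86 and 6.01 against 4.54, 4.48 and 4.51. Inhbb, which encodes the beta-B subunit of activins, read 5.06, 5.06 and 4.81 against 6.85, 7.93 and 7.93, a difference of -2.60 ± 0.36. Grem1, a BMP antagonist, read 10.12, 9.77 and 9.74 against 11.46, 11.28 and 11.42, and Fst, which binds activins, fell by 2.21 ± 0.49; both were called in 20 of 21 alternatives. Inhba, the beta-A subunit, read 9.75, 9.66 and 9.20 against 12.88, 10.80 and 10.49, called in 13 of 21 alternatives, with an adjusted p of up to 0.14. Its difference was -1.85 with Ventral 1 and -1.11 without it (adjusted p = 0.1). The other probe sets of Id4, Smad7, Fst, Inhbb and Inhba were not called. Id2, Id3 and Smad6, also on this list, were not called either.

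Retinoic acid is made by Aldh1a enzymes, carried by Crabp proteins and sensed by the Rar receptors. Of 17 measured members of this pathway 3 rose and 0 fell, with a median of -0.01; 4 rose and 2 fell without Ventral 1, after a second quantile normalization or with only the 6 arrays in the fit, and 4 rose and 1 fell without Dorsal 1. Over all genes, 10.3% were called higher and 4.31% lower. The 3 belong to those steps, but Aldh1a1, Aldh1a3, Crabp1, Rara and Rarb, members of the same steps, were not called. Aldh1a2 read 6.66, 6.76 and 7.25 in Oral and 4.74, 4.63 and 4.16 in Ventral (2.38 ± 0.27). Crabp2 read 9.18, 8.79 and 8.51 against 5.26, 5.33 and 5.69 (3.40 ± 0.21), and Rarg read 10.45, 10.21 and 10.30 against 8.38, 8.65 and 8.53 (1.80 ± 0.17). All 3 were called in every alternative.

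Of 12 hedgehog pathway genes 4 rose and 0 fell (median 0.28). They were 2 coreceptor genes, Cdon and Boc, the signal transducer Smo and the transcription factor Gli3. Cdon read 10.36, 10.49 and 10.23 in Oral and 8.75, 9.48 and 9.36 in Ventral, called in every alternative, and Smo rose by 0.65 ± 0.11, called in 20 of 21. Boc (1.46 ± 0.39) and Gli3 (0.70 ± 0.18) were each called in 16 of 21, with adjusted p of up to 0.09 and 0.13. The number called was 2 without Oral 1, 2 without Oral 2 and 2 after a second quantile normalization. The pathway's target genes, chosen after their values were seen, did not pass the test: Ptch1 differed by 1.03 ± 0.41 (adjusted p = 0.122) and Gli1 by -0.18 ± 0.14 (adjusted p = 0.403).

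Of 19 FGF pathway genes 2 rose and 2 fell, where 10.3% of all genes were called higher and 4.31% lower. Spry2, a feedback inhibitor of receptor tyrosine kinases, read 8.62, 8.91 and 8.95 against 6.57, 7.33 and 7.50, and the ligand gene Fgf10 read 5.64, 5.78 and 5.35 against 6.73, 6.67 and 6.90. Both were called in every alternative. Spry4 (0.80 ± 0.22) was called in 13 and Fgfr4 (-0.44 ± 0.10) in 16 of 21. The number called over the list was 2 without Oral 1, Oral 3 or Ventral 2 and 8 without Dorsal 1 or Dorsal 3. Of 32 guidance ligands and receptors 2 rose and 7 fell (median -0.03), with 5 called in all without Oral 1, Oral 2, Oral 3 or Ventral 2. Epha3, an ephrin receptor gene, read 9.94, 10.43 and 10.42 in Oral and 6.75, 6.48 and 6.56 in Ventral, a difference of 3.67 ± 0.24. The netrin receptor gene Unc5c rose by 1.12 ± 0.15 and the semaphorin receptor gene Plxna2 fell by 1.66 ± 0.19, each in every alternative.

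**Figure D3:**
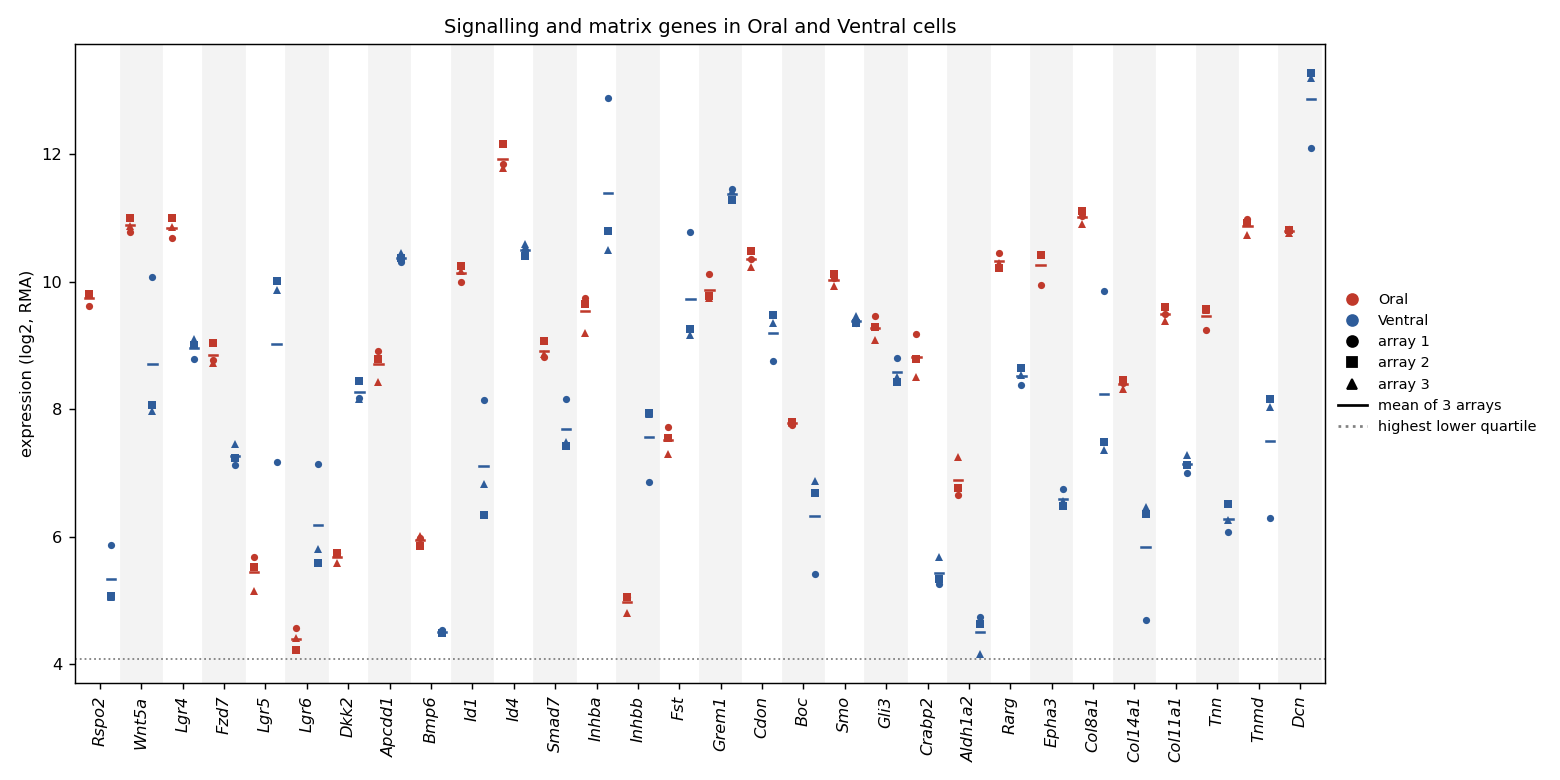
Log2 expression of signalling and matrix genes in each Oral and Ventral array; symbols distinguish arrays 1, 2 and 3, short lines are means of 3, and the dotted line is the highest lower quartile of the 6 arrays. Ventral 1 (blue circle) lies apart from the other Ventral arrays in Lgr5, Wnt5a, Inhba and Col8a1, while Rspo2, Crabp2 and Epha3 separate the groups in all arrays.

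Collagen genes rose in part, and the fibrillar collagens that make up most of the dermis were not among them. Of 27 measured collagen genes 9 rose and 0 fell, with a median of 0.54, and in 16 every Oral array lay above every Ventral array. The shares over all genes were 10.3% called higher, 4.31% called lower and 24.8% with every Oral array above. Without Dorsal 1 the number called was 14. Without Ventral 1, 7 were called higher and 1 lower. Col8a1, of a short-chain collagen, read 11.03, 11.11 and 10.91 in Oral and 9.86, 7.49 and 7.36 in Ventral, a difference of 2.78 ± 0.57, or 3.59 without Ventral 1. Its partner chain Col8a2 rose by 1.87 ± 0.29. Col14a1, of a fibril-associated collagen, read 8.41, 8.46 and 8.31 against 4.70, 6.35 and 6.47, and Col11a1, a minor fibrillar chain of cartilage and tendon, read 9.50, 9.61 and 9.38 against 6.99, 7.13 and 7.28. The basement membrane genes Col4a2 (1.46 ± 0.26) and Col18a1 (1.45 ± 0.27), chosen after their values were seen, rose as well. Col1a1 read 13.19, 13.45 and 13.06 against 13.26, 13.38 and 13.38 (adjusted p = 0.701), and Col3a1 read 13.57, 13.69 and 13.34 against 13.20, 13.68 and 13.70 (adjusted p = 0.983).

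Of 40 matrix glycoproteins and crosslinking enzymes 9 rose and 6 fell (median 0.25). Tnn, or tenascin-W, read 9.24, 9.58 and 9.56 in Oral and 6.07, 6.51 and 6.27 in Ventral, a difference of 3.18 ± 0.13. Its relative Tnc, tenascin-C, went the other way, at 10.90, 10.90 and 10.68 against 11.92, 11.84 and 11.86, called lower in 20 of 21 alternatives. The thrombospondins also split: Thbs4 rose by 1.74 ± 0.28 and Thbs2 fell by 1.15 ± 0.19. The other probe sets of Thbs2 differed by -0.57 and -0.38 and were not called. The transglutaminase gene Tgm2 rose by 1.99 ± 0.41. Postn, periostin of collagen-rich tissues, chosen after its values were seen, read 13.36, 13.42 and 13.06 against 12.19, 11.93 and 11.88. Among 13 small leucine-rich proteoglycans 1 rose and 1 fell. Osteomodulin, Omd, rose by 1.66 ± 0.32, and decorin, Dcn, which binds collagen fibrils and TGF-beta, read 10.82, 10.81 and 10.76 against 12.10, 13.27 and 13.20, 4.17 times lower in Oral. Of 34 matrix proteases and inhibitors 4 rose and 5 fell, where 10.3% of all genes were called higher and 4.31% lower. Adamtsl3, an ADAMTS-like matrix protein, read 9.39, 9.45 and 9.31 against 6.10, 5.72 and 5.44, and the protease gene Adamts12 rose by 1.57 ± 0.26. The 4 largest falls were Pcolce2, Mmp11, Mmp23 and Mmp8, none of them called in every alternative, and the list's count was 3 without Oral 2, 4 without Oral 3, Ventral 2 or Ventral 3 and 15 without Dorsal 1.

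General fibroblast markers did not separate the groups as a list: 2 of 15 rose and 1, Dcn, fell, with a median of 0.01. Over all genes, 10.3% were called higher and 4.31% lower. The receptor gene Pdgfra read 11.86, 11.92 and 11.76 in Oral and 10.71, 11.94 and 11.96 in Ventral (adjusted p = 0.543), although a dimmer probe set of it was called lower (-1.33 ± 0.30). The 2 that rose were Mfap5 (0.86 ± 0.13) and Fn1 (0.78 ± 0.21, called in 14 of 21 alternatives, with an adjusted p of up to 0.11).

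Lists of fibroblast subtypes of skin differed in direction. Of 13 measured markers of the papillary, or upper, dermis 0 rose and 4 fell, with a median of -0.90. These calls did not hold well. The number was 0 without Oral 3, 1 without Oral 1, Oral 2, Ventral 2 or Ventral 3, 2 without any single Cranial array, and 6 without Ventral 1. Apart from Apcdd1, given above, the calls were Lrig1 (-0.90 ± 0.23, called in 16 of 21 alternatives), Ntn1 (-1.44 ± 0.42, in 13) and Prdm1 (-1.59 ± 0.48, in 10), with adjusted p of up to 0.096, 0.15 and 0.16. Dpp4, which was on this list and also on the next one, read 4.43, 4.54 and 4.57 in Oral and 4.56, 4.22 and 4.83 in Ventral (adjusted p = 0.94). Of 14 measured markers of the reticular dermis and hypodermis, the lower layers, 5 rose and 1 fell (median 0.40). The surface sialomucin gene Cd34 read 6.49, 6.68 and 6.59 in Oral and was near background in Ventral at 3.78, 3.51 and 3.85. Mgp, an inhibitor of calcification, read 9.75, 9.68 and 9.49 against 5.40, 7.38 and 7.57. The prostacyclin synthase gene Ptgis rose by 1.74 ± 0.22 and Dlk1, a Notch-family ligand of precursor cells, by 1.61 ± 0.27.

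Genes of the fat lineage moved both ways, where 10.3% of all genes were called higher and 4.31% lower. Pparg, the master regulator of fat cells and the 1 member of the lower-layer list that fell, read 5.59, 5.55 and 5.59 against 7.27, 7.80 and 7.76. Lipoprotein lipase, Lpl, read 10.85, 10.68 and 10.79 against 12.37, 13.59 and 13.62, a difference of -2.42 ± 0.30. Of 13 adipocyte lineage genes these 2 fell and 2 rose, namely Dlk1 and Zfp423, a factor of preadipocytes, at 6.51, 6.69 and 6.81 against 3.88, 4.12 and 4.43.

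Of 11 tendon and ligament genes 7 rose and 1, Tnc, fell, with a median of 0.68. The 7 include Egr1, which is also counted among the immediate early genes below and was called in 12 of 21 alternatives. Tenomodulin, Tnmd, a tendon membrane protein, read 10.98, 10.92 and 10.74 in Oral and 6.29, 8.16 and 8.03 in Ventral, a difference of 3.38 ± 0.58. Mkx, a transcription factor of tendon, read 5.75, 6.17 and 6.19 and was near background in Ventral at 4.18, 3.58 and 4.01. Col11a1 and Thbs4, given above, were the other members called in every alternative. The count was 5 without Oral 1, Oral 2, Ventral 1 or Ventral 2 and 4 without Oral 3. Of 12 markers of bone, cartilage and tooth mesenchyme 2 rose, Msx1 and the cartilage proteoglycan gene Acan, at 7.17, 6.90 and 6.87 against 4.99, 5.18 and 5.67. Of 17 markers of the dermal papilla and sheath of the hair follicle 1 rose and 3 fell, with 2 called without Ventral 3 and 7 without Dorsal 1. The riser was Trps1 (1.72 ± 0.36), and Fgf10, given above, was among those that fell.

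Chemokine and cytokine genes were lower in Oral in part: of 29 measured members 6 fell and 2 rose, with a median of -0.43. The count was 5 without Oral 1, Oral 2, Ventral 2 or Ventral 3. Cxcl2 was near background in Oral at 3.10, 3.43 and 3.17 and read 8.37, 6.86 and 7.03 in Ventral, an 18.2-fold difference. Its relative Cxcl1 read 10.13, 10.55 and 10.55 against 12.94, 12.34 and 12.47. Ccl2, which draws monocytes, fell by 1.41 ± 0.31 in 20 of 21 alternatives, and C1qtnf3, a secreted relative of complement component C1q, fell by 1.89 ± 0.36 in 21. Cx3cl1, a membrane-bound chemokine, read 6.95, 6.93 and 6.89 against 5.91, 5.19 and 5.19, called higher in 20 of 21. Cxcl12, a chemokine of many fibroblasts chosen after its values were seen, read 9.96, 10.02 and 10.31 in Oral and 7.95, 11.34 and 11.36 in Ventral, so that Ventral 1 lay below and the other 2 above all Oral arrays.

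Of 32 interferon response and p200 family genes 4 fell and 0 rose, with a median of -0.42. Without Ventral 1 the number called was 8, all lower, and the median was -0.73. The number called was 2 without Oral 2, Oral 3, Ventral 2 or Ventral 3, and 8 (1 higher, 7 lower) without Dorsal 3. The 2 p200 genes, Ifi202b and Ifi204, accounted for the large differences. Ifi202b read near background in all 3 Oral arrays, and its mean was 3.47 ± 0.02 (SD, n = 3) in Cranial and 9.76 ± 0.72 in Dorsal. Low values were therefore those of both Wnt1Cre sites and high values those of both En1Cre sites. Ifi204 read 3.68, 3.71 and 3.71 in Oral and 7.33, 7.85 and 7.83 in Ventral, but 7.04 ± 0.40 in Cranial and 8.24 ± 1.03 in Dorsal. Ifi203, another member, chosen after its values were seen, read 5.79, 5.77 and 5.68 against 5.83, 5.71 and 5.74 (adjusted p = 0.955). The p200 genes lie together and resemble each other in sequence, so a probe set of one may read part of another. The other 2 calls were Psmb8, an immunoproteasome subunit (-1.71 ± 0.40), and Irf9, which carries the interferon signal (-0.91 ± 0.23), called in 17 and 16 of 21 alternatives with adjusted p of up to 0.069 and 0.087.

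Immediate early and stress genes, which respond within minutes to growth factors or to handling of cells, were higher in Oral. Of 34 measured members 14 rose and 1 fell, with a median of 0.71, and in 23 every Oral array lay above every Ventral array. The shares over all genes were 10.3% called higher, 4.31% called lower and 24.8% with every Oral array above. Besides Egr3, its relative Egr2 read 10.97, 11.19 and 10.95 in Oral and 8.45, 8.27 and 8.16 in Ventral, a difference of 2.75 ± 0.33. Myc, a growth regulator, read 8.96, 9.10 and 8.87 against 6.73, 6.52 and 6.33. Ptgs2 read 10.69, 11.60 and 11.49 against 9.01, 5.48 and 5.24, with a difference of 4.69 that was 5.90 without Ventral 1. Atf3, a stress-induced factor of the ATF/CREB family, read 8.93, 8.96 and 8.86 against 6.88, 6.65 and 6.60 (2.20 ± 0.26). Dusp1, a phosphatase that ends MAP kinase signals, read 12.07, 12.14 and 11.91 against 10.81, 10.15 and 10.09 (1.69 ± 0.22), and Btg2, an antiproliferative gene, read 8.93, 8.73 and 8.66 against 7.12, 7.16 and 7.14 (1.63 ± 0.28). Atf3, Dusp1 and Btg2 were chosen after their values were seen and were called in every alternative. Not all of the list moved. Fos read 12.66, 12.75 and 12.49 against 10.94, 12.19 and 12.11 (adjusted p = 0.194), and Egr1, at 0.68 ± 0.20, was called in 12 of 21 alternatives, with an adjusted p of up to 0.138. The member that fell was Socs3, a feedback inhibitor of cytokine receptors, at 8.32, 8.37 and 8.04 against 10.44, 10.31 and 10.61. The probe sets for the 3 prime end of Actb, against those for its 5 prime end, were higher by 1.89 to 1.98 in Oral and 2.04 to 2.84 in Ventral, a sign of RNA integrity or labelling that moves with the groups. Its part in these results was not tested. For Gapdh the same difference was 2.56 to 2.69 in Oral and 2.27 to 2.61 in Ventral, so those ranges overlap.

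Genes of this list are known targets of CREB and ATF factors, so 3 of their promoters are shown. Each is the 250 bases before the gene's start in RefSeq (build GRCm38.p6, minus strand, written 5′ to 3′), and capitals mark matches to TGACG or its reverse complement CGTCA, the core motif of these factors. The regions are chr1:191183334-191183583 for Atf3, chr1:134079156-134079405 for Btg2 and chr17:26508473-26508722 for Dusp1.
Atf3: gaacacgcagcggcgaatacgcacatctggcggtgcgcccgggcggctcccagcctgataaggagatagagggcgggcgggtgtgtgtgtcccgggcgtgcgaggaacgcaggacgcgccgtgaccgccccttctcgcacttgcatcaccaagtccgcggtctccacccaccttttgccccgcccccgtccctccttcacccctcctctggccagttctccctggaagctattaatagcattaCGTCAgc
Btg2: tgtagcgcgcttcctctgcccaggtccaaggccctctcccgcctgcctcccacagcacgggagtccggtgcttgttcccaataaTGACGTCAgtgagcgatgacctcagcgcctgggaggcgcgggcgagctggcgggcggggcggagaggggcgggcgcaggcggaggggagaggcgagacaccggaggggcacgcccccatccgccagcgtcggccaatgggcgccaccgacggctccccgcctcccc
Dusp1: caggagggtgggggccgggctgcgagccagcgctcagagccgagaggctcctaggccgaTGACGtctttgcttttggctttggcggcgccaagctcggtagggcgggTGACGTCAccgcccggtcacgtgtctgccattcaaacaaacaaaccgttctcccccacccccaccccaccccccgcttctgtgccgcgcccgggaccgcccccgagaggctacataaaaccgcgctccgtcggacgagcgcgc
Btg2 holds the full palindrome TGACGTCA (in which a match on each strand overlaps), Dusp1 holds the palindrome and another core motif, and Atf3 holds 1 core motif next to its start. TGACG, on either strand, occurs in 7 of the 10 members called higher whose promoters were in the table (70.0%) and in 8 of 19 members not called higher (42.1%). It occurs in 19.8% of all 27025 promoters of the same length and in 25.9% of those of the genes tested. Over all genes, it is in 30.0% of promoters of genes called higher in Oral and 25.6% of those called lower. The palindrome occurs in 2 of those 10 members, both printed here, in 0 of the 19 members not called higher and in 2.50% of the promoters of genes tested, so the printed promoters are not typical of the list. A match is a description of letters and not a binding site.

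Markers of other cell types were low or alike in most lists, with exceptions. Of 17 leukocyte markers 1 was called lower and 0 higher. The count was 0 without Oral 2, Oral 3 or any 1 of the Ventral arrays, 2 without Dorsal 3, and 3, all lower, without Dorsal 1, with only the 6 arrays in the fit or after a second quantile normalization. Their summed level, given as the log2 of the sum of linear values, was 9.14 to 9.38 in Oral and 9.63 to 9.70 in Ventral, and Ptprc, which encodes CD45, read 3.94, 4.03 and 3.81 against 4.28, 4.19 and 4.18 (adjusted p = 0.101). Of 16 endothelial markers 2 were called lower (1 without Oral 2, Oral 3 or Ventral 1), and their sums were 9.69 to 9.71 in Oral and 9.96 to 10.29 in Ventral. Flt1, a receptor for VEGF, read 5.54, 5.25 and 5.35 against 7.40, 8.80 and 8.44, while Pecam1 (CD31) and Tek (Tie2) were at 3.60 to 4.20 in all 6 arrays. Leukocyte and endothelial sums were thus lower in Oral. The endothelial sum includes Flt1, which had a large difference, while 14 of the 16 endothelial markers were not called (median -0.11). A sum of linear values can follow a single gene, so it does not describe the list as a whole. Among 29 chemokine, cytokine and complement genes 6 were called lower and 2 higher. Their sums were 12.60 to 12.77 in Oral and 13.96 to 14.06 in Ventral. Among 32 interferon and p200 genes 4 were called lower and 0 higher. Their sums overlapped, at 13.54 to 13.81 in Oral and 13.58 to 14.15 in Ventral. The part of leukocytes and endothelial cells in these results was not tested. In bulk samples fewer cells of a type and less RNA per cell cannot be told apart.

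Of 17 keratinocyte and oral epithelium markers 1 was called higher and 1 lower, with sums of 9.93 to 10.02 in Oral and 10.04 to 10.10 in Ventral. Krt14 and Cdh1, epithelial genes, read 4.76 to 4.85 and 2.99 to 3.37 in Oral. The main probe set of Epcam, whose product was selected against, read 8.68, 8.65 and 8.94 in Oral and 8.66, 8.71 and 8.61 in Ventral (adjusted p = 0.872). Its other probe set read 4.26 to 4.66 in all 6 arrays, so the 2 probe sets disagree on its level. Of 10 Schwann cell and nerve markers 1 rose, the adhesion gene Ncam1, at 11.33, 11.24 and 10.88 against 10.00, 9.89 and 10.01. 0 of its 6 other probe sets were called. The sums were 11.18 to 11.56 in Oral and 10.44 to 10.54 in Ventral, and the glial factor gene Sox10 read 6.84, 6.54 and 6.69 against 6.92, 6.75 and 6.83. Of 16 mural and smooth muscle markers 2 rose, Notch3 (1.04 ± 0.22) and Smtn (1.01 ± 0.14), and 2 fell, with 2 called in all without Oral 1 or Ventral 3. The main probe set of Acta2, smooth muscle actin, read 13.61, 13.61 and 13.30 against 13.64, 13.21 and 13.25 (adjusted p = 0.687), although 2 of its 2 other, dimmer probe sets were called higher. Of 17 skeletal muscle markers 0 were called by limma (1 without Ventral 1), the nearest being titin, Ttn (-0.48 ± 0.15, adjusted p = 0.0524). Of 10 melanocyte markers 2 were called lower and 0 higher (0 called without Oral 2 or Ventral 2). Of 14 glandular markers 1 rose, the water channel gene Aqp5 (1.24 ± 0.14), and of 6 erythroid markers 1 rose, the globin gene Hba-a2 (0.98 ± 0.11). Of 34 cell cycle genes 1, Rrm2, was called, and it was called in 8 of 21 alternatives. The count for this list moved with the arrays used. It was 0 when any 1 of the Oral or Cranial arrays, Ventral 2, Ventral 3 or Dorsal 2 was left out. It was 4 (2 higher, 2 lower) without Dorsal 1, 8 (4 higher, 4 lower) without Dorsal 3, and 10 higher and 6 lower with only the 6 Oral and Ventral arrays in the fit.

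Eif2s3y, a gene of the Y chromosome, read 3.21, 3.24 and 3.28 in Oral and 7.36, 4.89 and 4.84 in Ventral, and 3.30 to 3.36 in Cranial and 6.88 to 7.81 in Dorsal. Of 5 measured Y-linked genes and X-inactivation transcripts it was the 1 called. Between Oral and Ventral the other Y-linked genes stayed near background and did not follow it. Uty read 3.35 to 3.71 in Oral and 3.60 to 3.76 in Ventral. Kdm5d read 3.76 to 4.04 in Oral and 3.72 to 3.89 in Ventral. In the other sites Kdm5d read 3.78 to 3.84 in Cranial and, higher, 3.92, 4.29 and 4.23 in Dorsal. Xist, which coats the inactive X, read 10.48 to 11.48 in all 12 arrays. Each En1Cre array thus read higher for Eif2s3y than any Wnt1Cre array, with Ventral 1 apart from the other Ventral arrays. The sex of the mice is not in the labels used here, and its part in the other results was not tested.

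**Figure D4:**
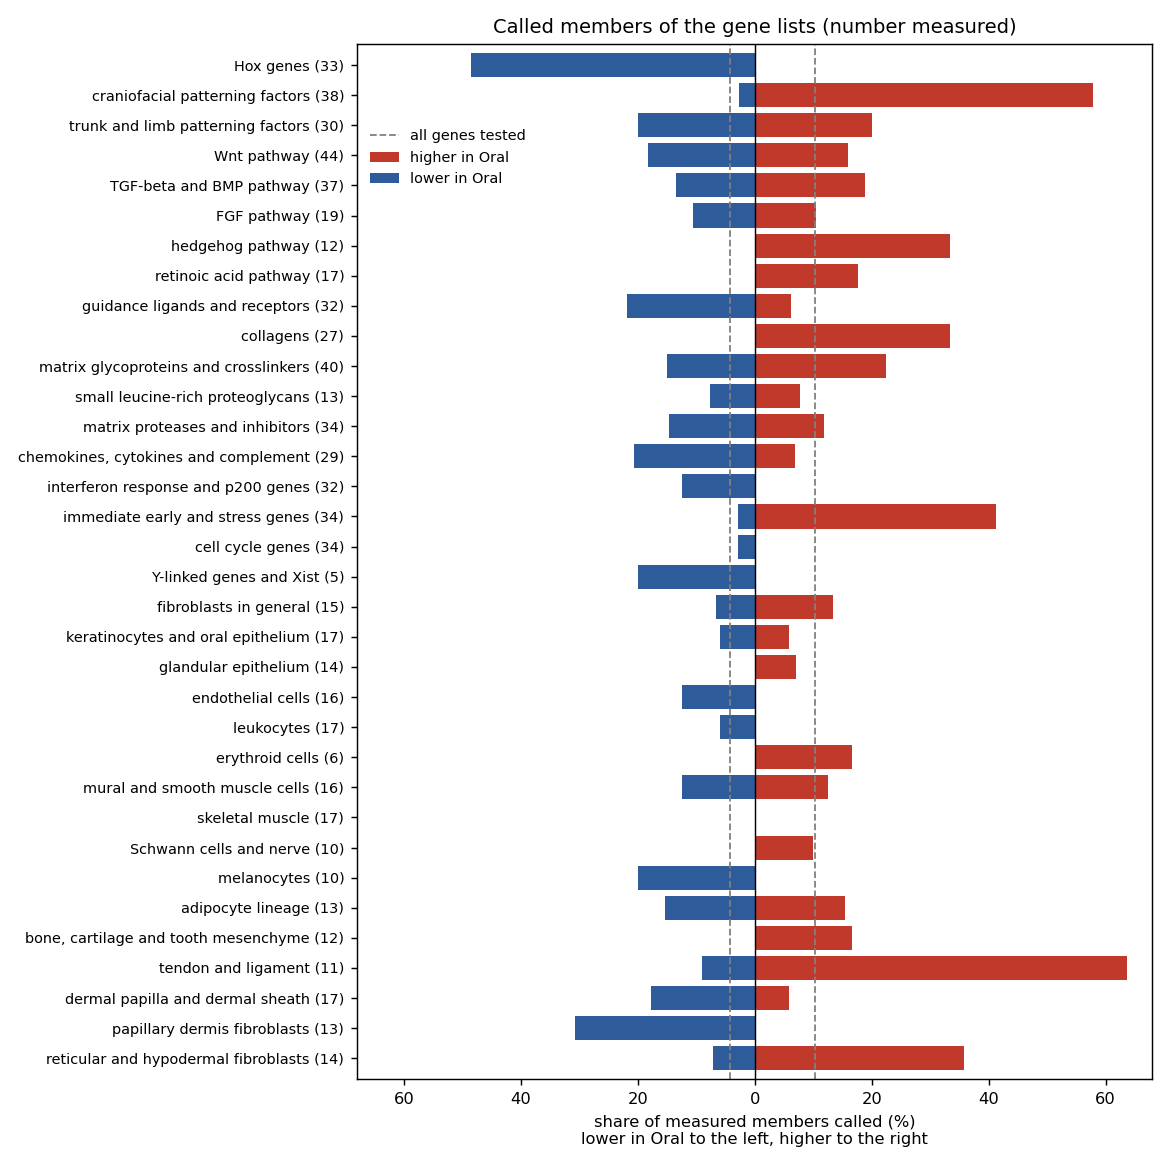
Share of the measured members of each gene list that were called lower (left) or higher (right) in Oral than in Ventral, in percent; the number measured is in brackets, and dashed lines mark all genes tested (4.31% lower, 10.3% higher). Hox genes extend to the left, and craniofacial factors, tendon genes and immediate early genes extend to the right.

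The series holds another pair of sites from the same lines, Cranial (Wnt1Cre) and Dorsal (En1Cre), which shares no arrays with Oral and Ventral. Between these, 3393 genes were called (18.7%), 2037 higher (11.2%) and 1356 lower (7.45%) in Cranial. Of the genes higher in Oral than in Ventral, 1267 were also higher in Cranial than in Dorsal, which is 67.4% of the first list and 62.2% of the second. Of the genes lower in Oral, 418 were also lower in Cranial, 53.3% of the first and 30.8% of the second. The pairs went opposite ways, both called, in 1 and 6 genes. Both comparisons came from the same fit, which gave each gene a common estimate of spread. A gene with a small spread is more easily called in both, so the shared calls are not an overlap of independent tests. Hoxc8 read 4.57 ± 0.04 (SD, n = 3) in Cranial and 10.73 ± 0.68 in Dorsal, and Egr3 read 10.05 ± 0.06 and 6.22 ± 2.85. Both pairs differ in site and in line together.

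**Figure D5:**
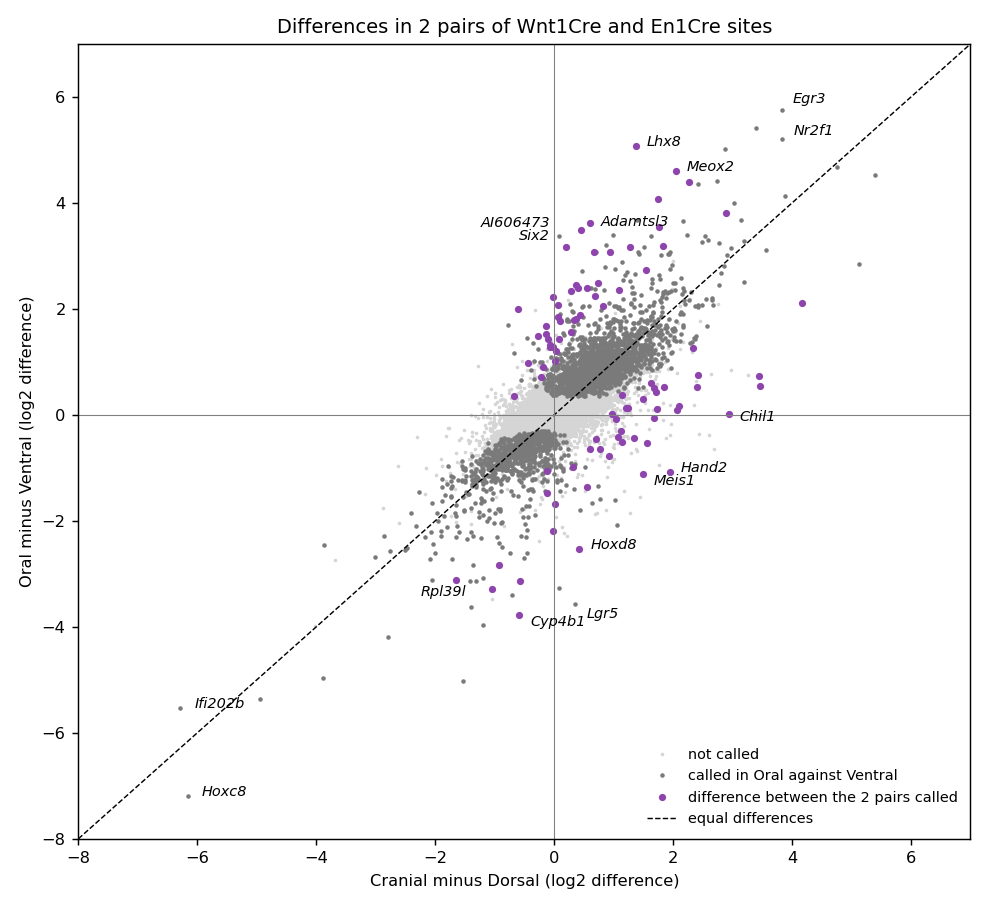
Log2 difference between Oral and Ventral (vertical) against that between Cranial and Dorsal (horizontal) for each gene tested; the dashed line marks equal differences, dark points are genes called in Oral against Ventral, and purple points are the 89 genes whose 2 differences differed. Hoxc8 and Ifi202b are low in both pairs, while Lhx8 and Six2 lie above the line and Cyp4b1 and Hoxd8 below it.

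The difference between the 2 pairs was itself tested. It was called in 89 genes (0.489%), 45 with a higher value for Oral minus Ventral (0.247%) and 44 with a lower one (0.242%). The number lay between 43 (without Oral 2) and 192 (without Dorsal 1). It was 161 without Ventral 1, 135 without Dorsal 2 and 159 without Dorsal 3, and 46 to 55 without Oral 1, Ventral 2, Ventral 3 or any single Cranial array. Lhx8 exceeded the other pair by 3.70 (adjusted p = 0.00019), since Cranial cells read 8.08 ± 0.13 and Dorsal cells 6.70 ± 0.10. AI606473, a transcript with no gene name in the table, read 8.31, 8.22 and 8.35 in Oral and 4.70, 4.96 and 4.77 in Ventral, and its difference exceeded the other pair's by 3.03. Six2 exceeded it by 2.96, at 5.60 ± 0.12 in Cranial and 5.40 ± 0.41 in Dorsal, so that Oral was the one site of the 4 with a mean above 6. Pitx1 and Lhx6 were likewise below a mean of 6 in the other 3 sites, and their differences exceeded the other pair's by 2.00 and 1.82.

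Genes with a lower value for Oral minus Ventral than for the other pair included some with a lower mean in Oral than in Cranial. Cyp4b1 read 6.53, 6.28 and 6.52 in Oral and 9.10, 10.79 and 10.79 in Ventral, against 10.03 ± 0.13 in Cranial and 10.62 ± 0.48 in Dorsal. Hoxd8 averaged 9.19 ± 0.08 in Cranial and 8.76 ± 0.41 in Dorsal, so that this Hox gene was not low in both Wnt1Cre sites. Hoxa2, chosen after its values were seen, was near background in both groups of the main pair and averaged 5.02 in Cranial and 3.35 in Dorsal. Hand2 was lower in Oral than in Ventral and averaged 6.54 ± 0.11 in Cranial and 4.59 ± 0.43 in Dorsal, a difference between the pairs of -3.01. Chil1, a chitinase-like secreted protein, read 4.64 to 5.06 in Oral and Ventral and 7.73 ± 0.10 in Cranial alone.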

How the data were processed

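Labelled cDNA from sorted mouse dermal cells was measured on Affymetrix Mouse Genome 430 2.0 arrays. The authors deposited log2 expression values per probe set, made by RMA with quantile normalization in R, per the series design text and, for RMA, the submitters' processing notes. The software versions and the number of normalization runs were not given in the sources used here. Of 45101 probe sets, 64 were controls; 34945 of the remaining 45037 carried 1 gene symbol in the platform annotation, 932 several and 9160 none. Of those with 1 symbol, 34741 matched the RefSeq gene table (GRCm38.p6, used for names and promoter sequences) by Entrez identifier. Each of 18193 genes was represented by its probe set with the highest mean over 18 arrays; 9010 had more than 1. No dim genes were removed. Other probe sets are described for some genes only. Those of Egr3, Rspo2 and Pou3f3, for example, were not called.

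The 12 site arrays were fitted in 1 model of 4 group means with limma 3.58.1 (lmFit, eBayes) in R 4.3.3, and p-values were adjusted by Benjamini-Hochberg over 18193 genes; the threshold was 0.05. Groups and replicate numbers came from the sample titles. With few arrays per group, their number limits the precision. The procedure was tested on simulated data. Array deviations were compared between same-numbered Oral and Ventral arrays, and no pairing was used. The members and gene lists were chosen with earlier results of these data known, and the lists are described by counts and medians without a test of their own. Genes were named by rule: the 12 largest rises and falls among called genes whose arrays did not overlap, up to 4 called genes per list each way (the 2 largest differences in a list without calls), the 4 largest called of each sign of the difference between pairs, and a fixed set of lineage, sort-marker and position genes. Not every gene so named is described, and those chosen later are marked. Alternatives changed the arrays in the fit, array weights, the variance model, a filter on dim genes, the normalization, the handling of probe sets and a replicate block, and left out each array in turn.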

Additional observations from a re-analysis of the deposited data

Results flagged for a closer look

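Results are listed here because the difference between Oral and Ventral cells differed from that between Cranial and Dorsal cells, by a test of the difference itself (limma, adjusted p under 0.05). Of 18193 genes 89 passed this test, 45 with a positive and 44 with a negative value. The 30 given here, 19 positive and 11 negative, are those named by rule or in the text. Values are the first log2 difference minus the second. Groups of 3 arrays were too small for a search for single outlying arrays.

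Among these genes, the position factors with positive values were Lhx8 (3.70), Six2 (2.96), Meox2 (2.55), Alx1 (2.40), Eya1 (2.33), Shox2 (2.14), Pou3f3 (2.12), Tbx2 (2.09) and Pitx1 (2.00), with Tfap2a (1.85), Lhx6 (1.82) and Pax3 (1.79). Matrix genes with positive values were Adamtsl3 (3.02), Tnn (1.90) and Postn (1.30). Signalling genes were Cx3cl1 (1.76), Bmp6 (1.53) and Lgr4 (1.45). The transcript AI606473 stood at 3.03.

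Negative values among them were those of the Hox genes Hoxd8 (-2.97), Hoxa2 (-1.73) and Hoxc4 (-1.46), and of the position factors Hand2 (-3.01), Meis1 (-2.61) and Irx2 (-1.70). The others were Cyp4b1 (-3.20), Chil1 (-2.92), Bmp5 (-2.70), Rpl39l (-2.25) and Perp (-1.65). Site and reporter line coincide in both pairs, and Dorsal 1 and Ventral 1 stood apart from their groups.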

How the results depend on the processing

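The number of genes called between Oral and Ventral was 4925 with only those 6 arrays in the fit, 7724 with array weights, 5029 of 34945 with each probe set as its own feature, and 6072 without the 3 Dorsal arrays, an alternative chosen after seeing the data. Leaving out 1 array gave 1420 to 5085. The Cranial and Dorsal comparison gave 10113 with array weights, 6519 by probe set and 1645 to 6148 with 1 array left out. The difference between the pairs gave 1565 with array weights and 43 to 192 with 1 array left out. Other alternatives kept these counts within 1.5 times. Same-numbered Oral and Ventral arrays did not deviate together across genes (correlations of 0.013, -0.047 and -0.034). With deviations taken from means of 3 arrays, this cannot exclude that the numbers pair them. With the replicate number as a block, 2355 genes were called between Oral and Ventral, 2931 between Cranial and Dorsal and 68 for the difference. Of the 2665 genes called, 100.0% were kept with array weights and 53.0% without Oral 2. Of 137 called genes named by rule, 90 were called in each of 21 gene-level alternatives. Differences of genes near background in 1 group are limited by that background.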
